A study of Mus musculus with 6 samples.

Results

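The transcripts of 9 enzymes of the tricarboxylic acid (TCA) cycle, Cs, Idh1, Idh2, Idh3a, Ogdh, Sucla2, Suclg1, Fh1 and Mdh2, were followed in mouse splenocyte cultures. They were chosen by gene symbol from a table of 23453 gene rows, and all 9 were present and passed the filter on low counts, among 12423 genes tested. The splenocytes came from wild-type OT1 mice on the C57BL/6 strain, in which a transgene gives CD8 T cells a receptor for ovalbumin, and the labels name the cells cytotoxic T lymphocytes (CTLs). All cultures were given OVA peptide for 48 h. One group of 3 then spent 8 h in FCM and is titled Vehicle, and the other group of 3 spent 8 h in TCM. Neither abbreviation is spelled out in the labels, which give no age. They also do not state what separates one replicate from the next, a culture or an animal. The p-values below therefore measure the spread among 3 libraries a group, and that spread may be technical.

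The TCA cycle oxidises acetyl groups to carbon dioxide in the mitochondrial matrix and passes the electrons to the respiratory chain as NADH and reduced flavin. Its intermediates also leave the cycle: citrate for lipid synthesis, oxaloacetate for aspartate, 2-oxoglutarate for glutamate and for dioxygenases. Activated T cells are known to feed it with both glucose and glutamine while they grow and divide. Idh1 is the cytosolic, NADP-dependent relative of the mitochondrial isocitrate dehydrogenases and works beside the cycle and not in it.

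Directions below follow the titles of the deposited count table. The deposited normalized table holds the same libraries with the titles of the groups exchanged (6 of 6 columns match the count column of the other group with the same replicate number), so that each direction given here reverses under that table's header. Which header is right could not be settled. Total counts per library ran from 17166687 to 25789381, and 1 count was worth 0.0374 to 0.0655 CPM (the count set against the TMM-scaled library size, the unit of all levels below). The replicate 1 library of each group stood apart: its counts differed from those of replicates 2 and 3 by a chi-square of 62.0 to 110 per gene, against 5.08 and 7.48 between replicates 2 and 3, and its share of the ribosomal RNA row Rn45s was 11.2% and 11.6% against 16.0% to 18.9%. T cell markers were present (10 of 10 tested, 2 higher and 1 lower, summed level 1076 to 1285 CPM in Vehicle and 1704 to 2018 CPM in TCM). Most of the rise in that sum lay in Thy1, named after its values were seen (mean 336 CPM in Vehicle, 923 CPM in TCM), and 7 of the 10 were not called. Markers of other cell types were present too. The summed level of 12 neutrophil markers was 8176 to 12716 CPM in Vehicle and 1152 to 2199 CPM in TCM, with 11 of 12 lower, and 10 macrophage and monocyte markers summed to 872 to 1115 against 237 to 283 CPM, with 7 lower and 1 higher. For 7 B cell markers the sums were 1807 to 2188 and 1007 to 1211 CPM, with 5 lower. Dendritic cell markers summed to 30.6 to 33.1 against 14.3 to 16.3 CPM (3 of 5 tested lower) and erythroid markers to 34.1 to 58.4 against 8.78 to 17.1 CPM (4 of 4 tested lower, and 1 further at 0 counts in all libraries). The NK cell sums overlapped (241 to 398 against 211 to 412 CPM, 1 of 4 tested lower). Nearly all of them came from 1 gene, Fcer1g, named after its values were seen (mean 334 CPM in Vehicle, 306 CPM in TCM). Beside these counts, 28.8% of all tested genes were higher and 30.0% lower. The part of these other cells in the results below was not tested. In bulk RNA fewer cells of a type and less RNA per cell cannot be told apart.

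The start regions of the 4 enzymes that passed the test are printed to show the sequence around their listed starts. RefSeq's table for GRCm38.p6 held a promoter (250 bases before to 50 after the start) for 8 of the 9 genes, all but Idh3a. Capitals mark CG dinucleotides, and each run reads 5′ to 3′ on the gene's strand. The regions are chr7:80115301-80115600 (minus strand) for Idh2, chr1:65186430-65186729 (minus strand, the first of 2 listed starts) for Idh1, chr14:73552536-73552835 (plus strand, inside the longer GENCODE span of the gene) for Sucla2 and chr6:73248255-73248554 (plus strand) for Suclg1.
Idh2: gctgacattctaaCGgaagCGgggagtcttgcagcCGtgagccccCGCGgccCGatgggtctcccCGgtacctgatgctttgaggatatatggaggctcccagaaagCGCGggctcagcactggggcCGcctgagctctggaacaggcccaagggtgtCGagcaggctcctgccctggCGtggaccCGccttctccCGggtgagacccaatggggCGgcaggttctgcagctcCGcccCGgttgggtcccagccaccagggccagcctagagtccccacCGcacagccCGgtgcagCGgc
Idh1: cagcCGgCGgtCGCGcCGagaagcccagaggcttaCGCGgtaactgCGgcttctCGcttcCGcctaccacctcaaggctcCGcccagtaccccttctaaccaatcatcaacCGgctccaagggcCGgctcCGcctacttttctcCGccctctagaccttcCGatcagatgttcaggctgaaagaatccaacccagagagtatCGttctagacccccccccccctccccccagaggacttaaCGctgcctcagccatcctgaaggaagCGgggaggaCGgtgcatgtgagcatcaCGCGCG
Sucla2: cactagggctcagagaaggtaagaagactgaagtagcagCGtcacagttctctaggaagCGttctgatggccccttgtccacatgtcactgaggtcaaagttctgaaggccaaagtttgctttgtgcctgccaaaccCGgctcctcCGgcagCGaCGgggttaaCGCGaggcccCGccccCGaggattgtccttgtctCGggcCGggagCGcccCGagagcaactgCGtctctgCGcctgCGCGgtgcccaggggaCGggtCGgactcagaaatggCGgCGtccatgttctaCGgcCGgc
Suclg1: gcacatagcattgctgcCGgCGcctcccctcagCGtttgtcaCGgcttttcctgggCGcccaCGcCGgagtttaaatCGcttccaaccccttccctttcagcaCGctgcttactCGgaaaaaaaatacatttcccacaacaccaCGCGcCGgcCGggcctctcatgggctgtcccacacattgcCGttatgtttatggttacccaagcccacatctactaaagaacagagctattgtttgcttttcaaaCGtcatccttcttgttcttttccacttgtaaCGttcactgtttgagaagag
These 4 held 20, 23, 24 and 17 CG dinucleotides, and the range over the first listed promoter of the 8 genes was 14 (Fh1) to 27 (Mdh2). Over all 32851 promoters of this length the median was 7 (interquartile range 3 to 20). Both strands were searched for CACGTG (the E-box bound by MYC and MAX, present in 7.15% of all promoters), the shorter ACGTG (the core of the hypoxia response element, in 19.6%, and by its letters part of each E-box), the estrogen-related receptor motif AAGGTCA (in 4.72%) and the NRF1 motif CATGCGC (in 3.91%). In 7 of the 8 genes the first listed promoter held none of these letters, and the first of the 6 listed for Ogdh held ACGTG. Of the later Ogdh starts, some also held the E-box, the estrogen-related receptor motif or the NRF1 motif. A match is a description of letters and not of binding, and no match says only that the letters are not in this window.

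Among the 9 enzymes, transcripts of the mitochondrial NADP-dependent isocitrate dehydrogenase (Idh2) rose 2.02-fold in TCM, those of both tested subunits of succinyl-CoA synthetase (Sucla2 and Suclg1) rose by 1.78-fold and 1.62-fold, and those of the cytosolic isocitrate dehydrogenase (Idh1) fell 1.51-fold. The other 5 (Cs, Idh3a, Ogdh, Fh1 and Mdh2) did not pass the test, with changes between a 1.19-fold lower and a 1.20-fold higher level. By edgeR's quasi-likelihood test at an adjusted p of 0.05, 3 of 9 (33.3%) were higher, where 28.8% of all tested genes were, and 1 of 9 (11.1%) was lower, where 30.0% of all tested genes were. In either direction 4 of 9 (44.4%) passed, beside 58.8% of all genes. The ranges of Vehicle and TCM were separate for 7 of 9 (77.8%), beside 64.2% of all genes. The median log2 change of the 9 was 0.25, and that of all tested genes was -0.02.

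**Figure D1:**
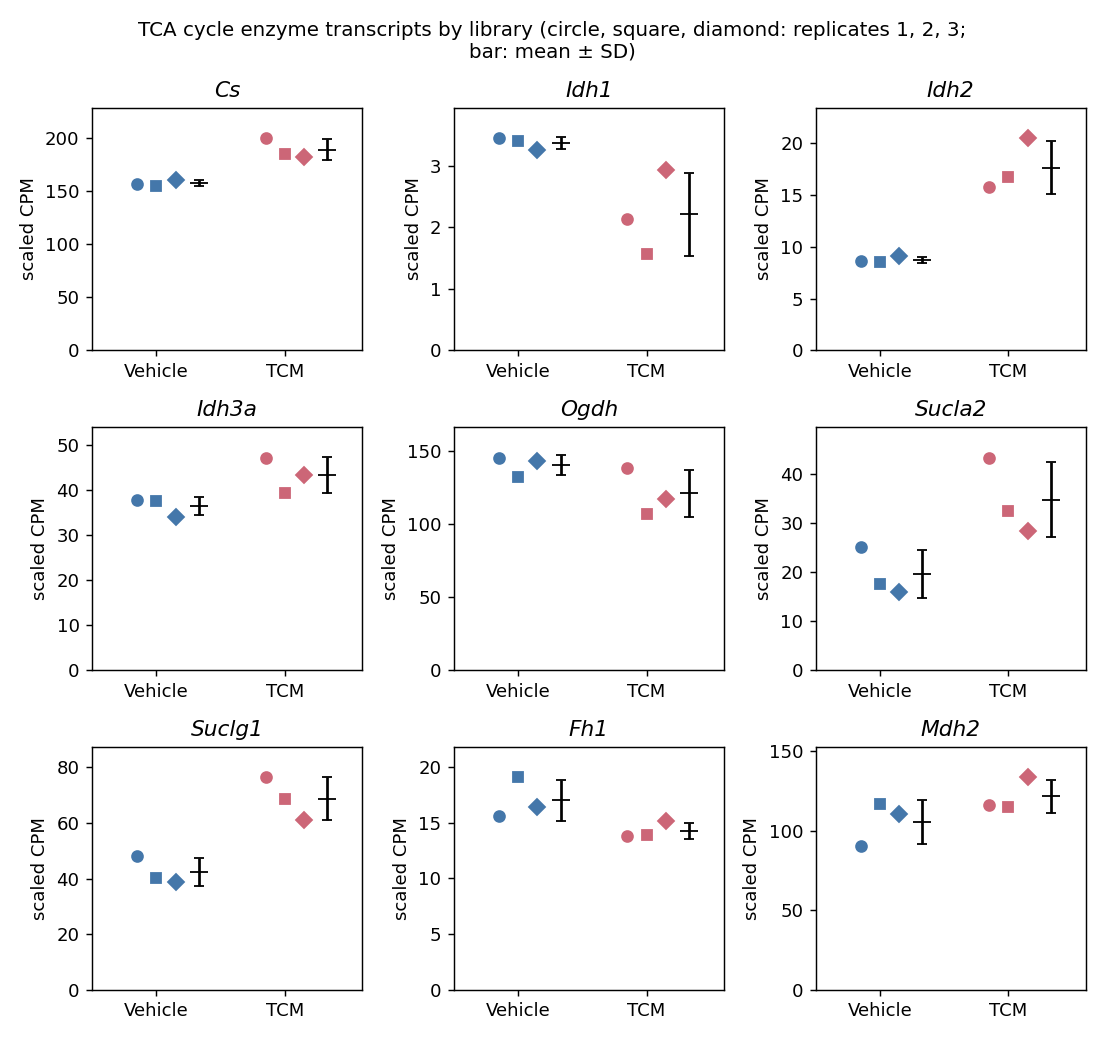
Level of each of the 9 TCA cycle enzyme transcripts (vertical axis, scaled CPM, from 0) in the 3 Vehicle and the 3 TCM libraries, 1 panel per gene, with the mean ± SD beside each group. Idh2 lay at 8.49 to 9.07 CPM in Vehicle and at 15.8 to 20.5 CPM in TCM, whereas the groups overlapped for Ogdh and Mdh2.

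Cs encodes citrate synthase, which joins acetyl-CoA to oxaloacetate and opens the cycle (chromosome 10, 128337734 to 128362479, plus strand, GENCODE M21 on GRCm38). Its level was 156, 155 and 160 CPM in Vehicle replicates 1 to 3 and 200, 185 and 182 CPM in the TCM replicates. All TCM libraries lay above all Vehicle libraries. The log2 change of 0.26 ± 0.12 (SE, 95% interval -0.02 to 0.55) did not pass in edgeR (adjusted p = 0.0958). It passed at 0.26 with the replicate number as a block (adjusted p = 0.0234 in edgeR), a pairing that no label gives. In DESeq2 it passed at 0.29 (adjusted p = 0.0127) and in edgeR without the replicate 1 libraries at 0.21 (adjusted p = 0.0232). Library totals alone as scaling gave 0.06. Of the distinct 50-base stretches in Cs transcripts, 4% also occur in the near-identical gene Csl, and the treatment of such reads by the counting is unknown.

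The isocitrate step had members that moved in opposite directions. Idh2 (chromosome 7, 80094846 to 80115392, minus strand) encodes the mitochondrial enzyme that makes NADPH and 2-oxoglutarate from isocitrate and can also run in reverse. It had 190, 227 and 234 counts in Vehicle and 296, 255 and 365 counts in TCM, or 8.62, 8.49 and 9.07 CPM against 15.8, 16.7 and 20.5 CPM. The 3 Vehicle libraries lay close together and every TCM library was higher. Idh2 rose by 1.02 ± 0.13 on the log2 scale (2.02-fold, adjusted p = 0.000260 in edgeR), and it passed at 0.78 to 1.10 in all 14 alternative settings that kept the count table's titles.

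Idh1 (chromosome 1, 65158616 to 65186500, minus strand) was the least abundant of the 9. It had 76, 91 and 84 counts in Vehicle and 40, 24 and 52 in TCM, or 3.45, 3.40 and 3.26 CPM against 2.13, 1.57 and 2.92 CPM. The groups did not overlap, but TCM replicate 3 lay close to the Vehicle libraries, and the TCM libraries differed more among themselves than the Vehicle libraries did. Idh1 fell by 0.60 on the log2 scale (SE 0.22, adjusted p = 0.0409 in edgeR). The call rests on all the libraries but 1. It was lost without Vehicle replicate 1 (-0.59, adjusted p = 0.0793), 2 (-0.59, 0.0911) or 3 (-0.62, 0.0753) and without TCM replicate 1 (-0.56, 0.0772) or 2 (-0.41, 0.143), all in edgeR, and stayed at -0.84 without TCM replicate 3. DESeq2 gave -0.57 with an adjusted p of 0.0801, and edgeR with median-ratio size factors -0.56 with an adjusted p of 0.0505.

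Idh3a (chromosome 9, 54586334 to 54604661, plus strand) encodes the catalytic alpha subunit of the NAD-dependent isocitrate dehydrogenase, the form that drives the cycle forward. Its level was 37.8, 37.7 and 34.1 CPM in Vehicle and 47.3, 39.4 and 43.4 CPM in TCM. The lowest TCM library was just above the highest Vehicle library. The log2 change of 0.25 ± 0.12 (95% interval -0.02 to 0.51) did not pass in edgeR (adjusted p = 0.0956), and passed with the replicate block (0.25, adjusted p = 0.0261).

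Within each library, the count of Idh1 was set against that of Idh2, which does not depend on the scaling. The log2 ratio was -1.32, -1.31 and -1.47 in Vehicle and -2.87, -3.38 and -2.80 in TCM, so that 1 Idh2 count stood beside 0.388 Idh1 counts in Vehicle and 0.123 in TCM. The difference of -1.65 (a 3.14-fold shift) gave p = 0.10 in a two-sided exact permutation test (adjusted p = 0.200 over 6 ratios), and 0.10 is the smallest value that 3 against 3 libraries allow. The log2 ratio of Idh2 over Idh3a was -2.06 ± 0.13 in Vehicle and -1.30 ± 0.26 in TCM (SD, n = 3; difference 0.76, no overlap, exact permutation p = 0.10, adjusted p = 0.200).

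**Figure D2:**
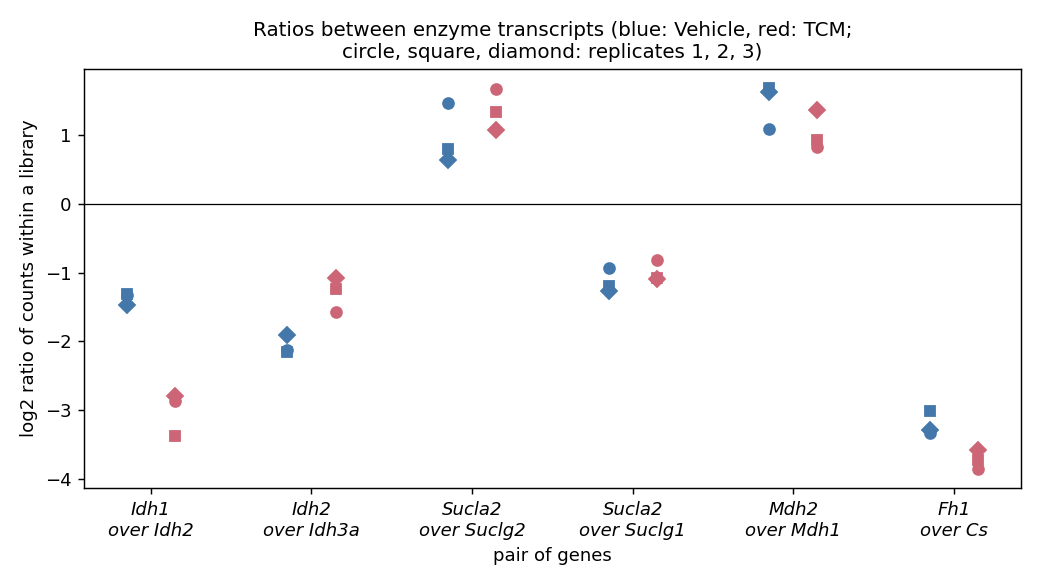
Log2 ratio of the counts of 2 enzymes within each library (vertical axis) for 6 pairs, with Vehicle in blue and TCM in red and a symbol for each replicate number. Idh1 over Idh2 lay at -1.47 to -1.31 in Vehicle and at -3.38 to -2.80 in TCM, while the groups overlapped for Sucla2 over Suclg2, Sucla2 over Suclg1 and Mdh2 over Mdh1.

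Ogdh (chromosome 11, 6291633 to 6356642, plus strand) encodes the first, decarboxylating component of the 2-oxoglutarate dehydrogenase complex, which turns 2-oxoglutarate into succinyl-CoA. Its level was 146, 132 and 143 CPM in Vehicle and 139, 107 and 117 CPM in TCM. TCM replicate 1 lay within the Vehicle range, and the other TCM libraries lay below it. The log2 change of -0.21 ± 0.14 (95% interval -0.53 to 0.10) did not pass in edgeR (adjusted p = 0.215). It passed at -0.31 without the replicate 1 libraries of both groups (adjusted p = 0.00243) and at -0.32 without TCM replicate 1 alone (adjusted p = 0.0421).

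Succinyl-CoA synthetase, the step that makes ATP or GTP directly, rose in both subunits among the 9. Suclg1 (chromosome 6, 73248382 to 73276911, plus strand) encodes the alpha subunit that both forms share. It had 48.2, 40.3 and 38.6 CPM in Vehicle and 76.5, 68.8 and 61.0 CPM in TCM. Sucla2 (chromosome 14, 73525319 to 73596142, plus strand) encodes the beta subunit of the ATP-forming enzyme and had 25.1, 17.6 and 15.9 CPM in Vehicle and 43.3, 32.5 and 28.4 CPM in TCM. In both genes and both groups replicate 1 was the highest library, for Sucla2 by 1.5-fold and 1.42-fold over the mean of replicates 2 and 3, and the groups still did not overlap. Compared within each replicate number, Sucla2 was higher in TCM by 0.78, 0.88 and 0.83 and Suclg1 by 0.67, 0.77 and 0.66 on the log2 scale.

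Suclg1 rose by 0.70 ± 0.14 (adjusted p = 0.00242) and Sucla2 by 0.83 ± 0.21 (adjusted p = 0.00784) in edgeR. With library totals alone as scaling, which moved the median of all genes to -0.23, neither passed (0.49 and 0.63, adjusted p = 0.0925 and 0.0990), and with the trend on transcript length removed Suclg1 did not pass (0.39, adjusted p = 0.0813), though it did so with the length trend and the replicate block together. The log2 ratio of Sucla2 over Suclg1 was -1.14 ± 0.17 in Vehicle and -1.0 ± 0.16 in TCM (SD, n = 3), an overlap that gave an exact permutation p of 0.400.

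Fh1 (chromosome 1, 175600374 to 175625635, minus strand) encodes fumarase, which hydrates fumarate to malate. Its level was 15.6, 19.1 and 16.4 CPM in Vehicle and 13.8, 13.9 and 15.1 CPM in TCM. Every TCM library was lower, by a small margin. The log2 change of -0.25 ± 0.12 (95% interval -0.53 to 0.02) did not pass in edgeR (adjusted p = 0.102), and passed with the replicate block (-0.25, adjusted p = 0.0436), without the replicate 1 libraries (-0.30, adjusted p = 0.0255), with library totals alone (-0.47, adjusted p = 0.0459) and with the length trend removed (-0.31, adjusted p = 0.0403). Against Cs in the same library the log2 ratio was -3.21 ± 0.17 in Vehicle and -3.72 ± 0.14 in TCM (SD, n = 3), without overlap (exact permutation p = 0.10, adjusted p = 0.200). The span of Fh1 overlaps Kmo on the opposite strand, with no shared exon.

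Mdh2 (chromosome 5, 135778480 to 135790398, plus strand) encodes the mitochondrial malate dehydrogenase, which regenerates oxaloacetate and closes the cycle. It had 90.0, 117 and 110 CPM in Vehicle and 116, 115 and 134 CPM in TCM. The groups overlapped, with Vehicle replicate 1 the lowest library. The log2 change of 0.20 ± 0.15 (95% interval -0.13 to 0.53, adjusted p = 0.254 in edgeR) passed in none of the 14 alternative settings that kept these titles and turned to -0.13 with the length trend removed.

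With the replicate number as a block, 5 enzymes passed as higher (Idh2, Sucla2, Suclg1, Cs and Idh3a) and 2 as lower (Idh1 and Fh1). Of all genes 36.3% were then higher and 37.0% lower. That pairing was taken from these data, which set replicate 1 apart and do not show that 2 and 3 match by number. Without the replicate 1 libraries 4 enzymes were higher (Idh2, Sucla2, Suclg1 and Cs) and 3 lower (Idh1, Fh1 and Ogdh), beside 36.3% and 37.9% of all genes.

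Levels were compared between genes per kilobase of merged exon. In Vehicle the order was Mdh2 (72.5 ± 9.52 CPM per kb, SD, n = 3), Cs (53.7 ± 0.958), Ogdh (31.6 ± 1.56), Suclg1 (27.9 ± 3.37), Idh3a (14.2 ± 0.809), Sucla2 (8.77 ± 2.19), Fh1 (6.45 ± 0.700), Idh2 (5.0 ± 0.175) and Idh1 (1.36 ± 0.0405 CPM per kb). Neighbours in that order overlapped between libraries for Ogdh and Suclg1 and for Sucla2 and Fh1. In TCM, Suclg1 (45.3 ± 5.08 CPM per kb) stood above Ogdh (27.2 ± 3.62) and Idh2 (10.1 ± 1.44) above Fh1 (5.41 ± 0.282), both without overlap, and Idh3a (16.8 ± 1.53) and Sucla2 (15.6 ± 3.45) overlapped. Mdh2 (83.5 ± 7.18) and Cs (64.5 ± 3.31) remained at the head and Idh1 (0.891 ± 0.274 CPM per kb) at the foot. The highest mean was 53.3 times the lowest in Vehicle and 93.6 times in TCM.

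**Figure D3:**
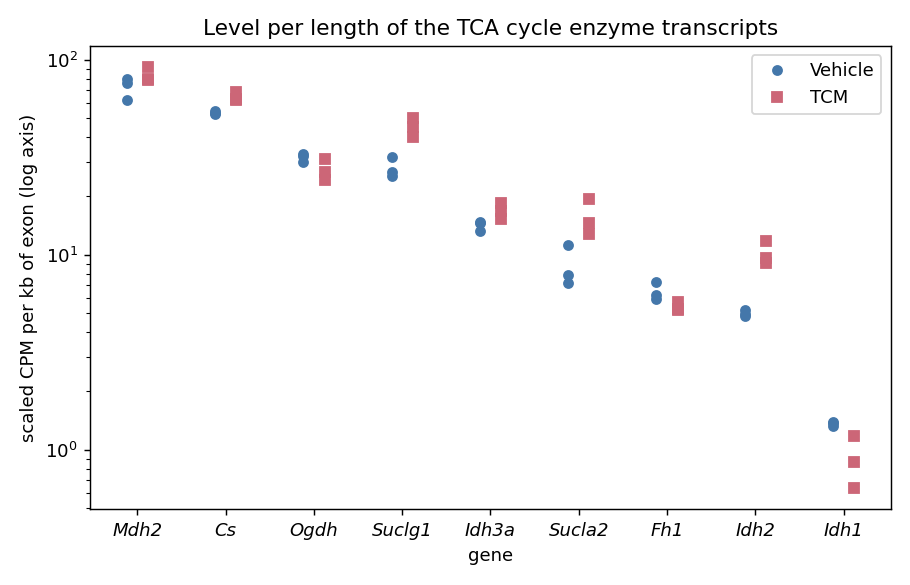
Level per kilobase of merged exon (vertical log axis, scaled CPM per kb) of the 9 enzymes, ordered by their Vehicle mean, with 1 point per library. Suclg1 lies at 25.4 to 31.7 in Vehicle and 40.2 to 50.3 in TCM, and Idh1 lies lowest in both groups.

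The changes were also set against transcript length, since across all tested genes the median log2 change ran from 0.47 among the shortest merged exons (the first of 5 equal bins) to -0.35 among the longest. Idh2, Suclg1 and Mdh2 (1745, 1519 and 1456 nt) belonged to the shortest bin, and Ogdh (4449 nt) to the one before the longest. With the per-library length trend removed, Idh2 and Sucla2 stayed higher (0.78 and 0.72), Idh1 stayed lower (-0.67), and Fh1 passed as lower.

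The other enzymes of the cycle were examined beside the 9. Of 12 genes listed, all tested, 7 were higher and none lower by edgeR (adjusted p of 0.05), with a median log2 change of 0.44. Of all tested genes 28.8% were higher and 30.0% lower. At an unadjusted p under 0.05 in edgeR the 12 gave 8 higher and 1 lower, where 7911 of all 12423 tested genes passed in either direction. In DESeq2 the 12 gave 8 higher and 0 lower, a count that describes the setting. Together with the 9, edgeR's calls make 10 higher and 1 lower of 21, or 52.4% called, where 58.8% of all genes were called. These 21 include the genes of cytosolic enzymes, Aco1, Idh1 and Mdh1. Of these, Idh1 was the only lower gene of the 21 and Mdh1 was among the higher. In the same TCM libraries the summed neutrophil markers were lower (8176 to 12716 CPM in Vehicle against 1152 to 2199 CPM). The sums for macrophages and monocytes, B cells, dendritic cells and erythroid cells were lower too. That for T cells was higher, mostly through Thy1, while of the 10 T cell markers 2 were higher, 1 was lower and 7 were not called. The part of these cells in the counts above was not tested.

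Succinate dehydrogenase, which oxidises succinate and belongs to the respiratory chain as complex II, held the largest change among these 21 genes. Its membrane subunit gene Sdhd had 96.5, 82.1 and 99.3 CPM in Vehicle and 226, 321 and 310 CPM in TCM, and rose by 1.63 ± 0.17 on the log2 scale (adjusted p = 7.99e-05 in edgeR). The other subunits changed less. Sdhc rose by 0.68 ± 0.26 (adjusted p = 0.0446) and Sdhb by 0.44 ± 0.17 (adjusted p = 0.0450), while the flavoprotein gene Sdha, at 0.39 ± 0.15, did not pass (adjusted p = 0.0529). The groups overlapped for Sdhc (127 to 187 CPM in Vehicle, 173 to 329 CPM in TCM) and Sdhb (41.4 to 58.0 against 57.0 to 74.7 CPM), and did not for Sdha. Single libraries decided these 3 calls. Sdhc was lost without Vehicle replicate 1 (0.52, adjusted p = 0.129), 2 (0.77, 0.0642) or 3 (0.77, 0.0679) and without TCM replicate 2 (0.59, 0.147) or 3 (0.52, 0.135). Sdhb was lost without Vehicle replicate 2 (0.38, adjusted p = 0.137) or 3 (0.35, 0.163) and without TCM replicate 1 (0.33, 0.0951) or 2 (0.48, 0.0834), and stood at -0.04 with the length trend removed. Sdha passed without Vehicle replicate 1 (0.51, adjusted p = 0.0227) and with the replicate block (0.39, adjusted p = 0.000525). These p-values are edgeR's.

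In the 2-oxoglutarate dehydrogenase complex, the core gene Dlst rose by 0.63 ± 0.18 (adjusted p = 0.0149 in edgeR) from 133 ± 20 to 206 ± 39.0 CPM (SD, n = 3), but not without Vehicle replicate 2 (0.53, adjusted p = 0.0645), and its adaptor subunit gene Mrps36 rose by 1.15 ± 0.22 (adjusted p = 0.00194). Of the 50-base stretches of Mrps36, 33.7% also occur in pseudogenes, so its value is uncertain. Dld, the subunit shared with pyruvate dehydrogenase, was at 0.21 ± 0.19 (adjusted p = 0.348), and passed at 0.24 with the replicate block (adjusted p = 0.0338) and at 0.45 without Vehicle replicate 1 (adjusted p = 0.0269). Suclg2, the beta subunit of the GTP-forming succinyl-CoA synthetase, rose by 0.43 ± 0.11 (adjusted p = 0.0103 in edgeR), with 19.5% of its stretches shared with a pseudogene. The log2 ratio of Sucla2 over Suclg2 was 0.97 ± 0.44 in Vehicle and 1.36 ± 0.29 in TCM (SD, n = 3), with overlap (exact permutation p = 0.30).

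Mdh1, the cytosolic malate dehydrogenase of the malate-aspartate shuttle, rose by 0.64 ± 0.13 (adjusted p = 0.00315 in edgeR). The log2 ratio of Mdh2 over Mdh1 was 1.47 ± 0.33 in Vehicle and 1.04 ± 0.29 in TCM, with overlap (SD, n = 3; exact permutation p = 0.200). Idh3b, a regulatory subunit of the NAD-dependent isocitrate dehydrogenase, was at 0.18 ± 0.11 (adjusted p = 0.184) and Idh3g, the other one, at -0.28 ± 0.11 (adjusted p = 0.0602). Idh3g passed as lower with the replicate block (-0.28, adjusted p = 0.0111) and without TCM replicate 1 (-0.35, adjusted p = 0.0188), and stood at -0.67 with the length trend removed (adjusted p = 0.00488). Idh3b shares exon sequence with Nop56 on the opposite strand. Aco1, the cytosolic aconitase, which isomerises citrate, was at 0.21 ± 0.12 (adjusted p = 0.166 in edgeR), and passed with the length trend removed (0.32, adjusted p = 0.0350). With library totals alone Dlst, Suclg2, Sdhb, Sdhc and Mdh1 did not pass (0.44, 0.23, 0.23, 0.44 and 0.43, adjusted p at least 0.0728 in edgeR).

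**Figure D4:**
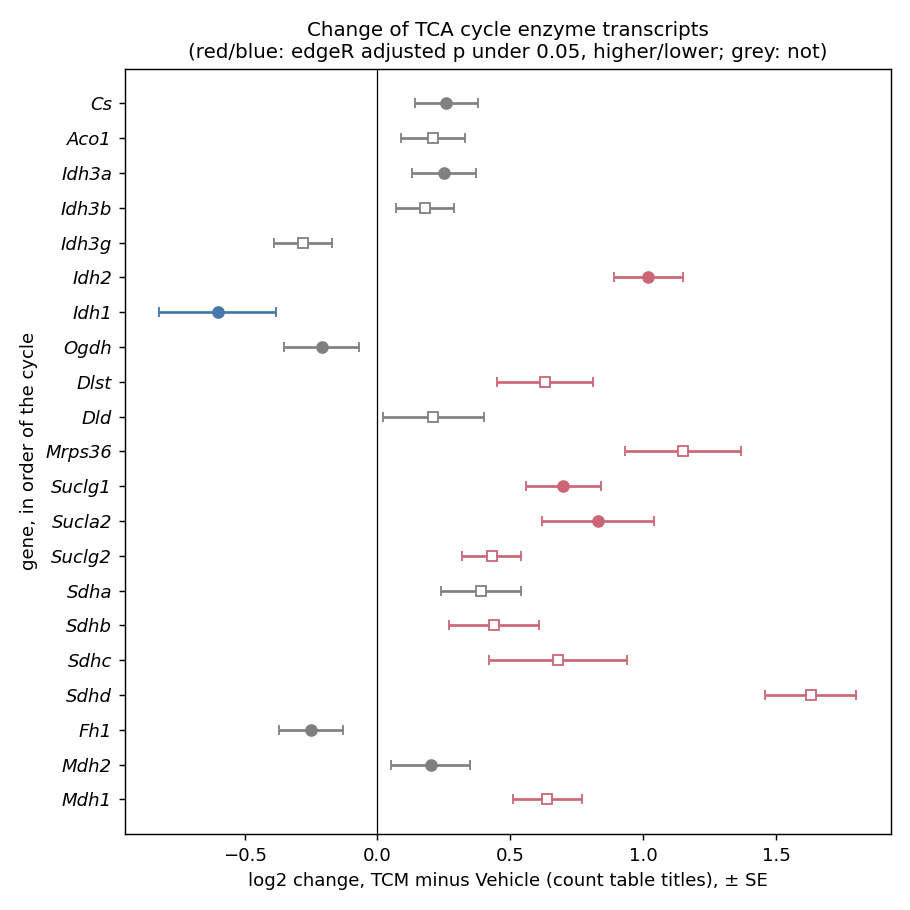
Log2 change, TCM minus Vehicle, with its SE (horizontal axis) of 21 TCA cycle genes in the order of the cycle, with the cytosolic Aco1, Idh1 and Mdh1 among them. Filled circles are the 9 enzymes and open squares the other 12, and red and blue mark genes that passed edgeR's test as higher and lower. Idh1 at -0.60 is the only blue point and Sdhd at 1.63 the highest.

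Genes that bring pyruvate into the cycle or regulate its entry were mixed. Of 14 listed, 13 were tested, 7 were higher, 1 was lower and 5 did not pass, with a median log2 change of 0.50, where 28.8% of all genes were higher and 30.0% lower. With library totals alone 4 were higher, where 2364 of 12423 tested genes were, against 3584 with TMM. Dlat, the acetyltransferase core of pyruvate dehydrogenase, rose by 0.78 ± 0.13, and so did Pdk1 and Pdk3, kinases that switch pyruvate dehydrogenase off (0.99 ± 0.15 and 0.99 ± 0.16, adjusted p at most 0.000834 for the 3 in edgeR). The single lower gene was Pdp2 (-0.71 ± 0.16, adjusted p = 0.00438 in edgeR), a phosphatase that switches the enzyme back on, named after its value was seen.

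Genes that exchange glutamine, glutamate and malate with the cycle moved both ways, with 3 of 12 higher and 2 lower (median 0.25). Of all tested genes 28.8% were higher and 30.0% lower. Gls2, a mitochondrial glutaminase, rose 6.86-fold from 1.25 ± 0.0786 to 8.60 ± 0.399 CPM (SD, n = 3). Gpt2, the mitochondrial alanine transaminase, had 31.0 ± 1.11 CPM in Vehicle and 8.93 ± 0.926 CPM in TCM, a fall of 3.47-fold. Slc1a5, a glutamine transporter, fell 2.17-fold, with 479 ± 15.1 CPM in Vehicle and 221 ± 14.3 CPM in TCM (for the 3 genes, edgeR's adjusted p was at most 0.000184). The other genes that rose, named after their values were seen, were Glud1 (0.57 ± 0.13) and Got2 (0.38 ± 0.12). With library totals alone 1 was higher, where 2364 of 12423 tested genes were, against 3584 with TMM. With the replicate block 6 were higher and 3 lower, where 36.3% of all genes were higher and 37.0% lower.

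Among genes that use citrate, malate or oxaloacetate, 9 of 11 were tested, and 4 rose and 4 fell (median 0.23). Of all tested genes 28.8% were higher and 30.0% lower. Slc25a10, the mitochondrial dicarboxylate carrier, rose by 1.19 ± 0.19. Pck2, the mitochondrial enzyme that turns oxaloacetate into phosphoenolpyruvate, had 163 ± 5.27 CPM in Vehicle and 33.9 ± 1.76 CPM in TCM and fell 4.81-fold (SD, n = 3, edgeR's adjusted p = 1.51e-06). Acod1, listed as Irg1 in the table, makes itaconate from cis-aconitate in activated macrophages, and fell from 132 ± 12.9 to 78.1 ± 7.0 CPM (adjusted p = 0.00146 in edgeR). Macrophage and monocyte markers summed to 872 to 1115 CPM in Vehicle and 237 to 283 CPM in TCM, and their part in this was not tested.

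Of 3 enzymes that handle 2-hydroxyglutarate, 1 was lower and 2 did not pass, where 30.0% of all tested genes were lower. Adhfe1 was the lower one (-0.85 ± 0.32, adjusted p = 0.0452 in edgeR), at 11 to 43 counts per library. That call was lost in DESeq2 (-0.83, adjusted p = 0.0918), without Vehicle replicate 1 (-0.57, 0.136) or 2 (-0.95, 0.0540) and without TCM replicate 1 (-0.71, 0.118) or 2 (-0.80, 0.124). None of 5 genes of lipoate synthesis, the cofactor of the pyruvate and 2-oxoglutarate dehydrogenases, passed in edgeR (smallest adjusted p = 0.292), where 58.8% of all genes did. At an unadjusted p under 0.05 in edgeR 0 of the 5 passed, where 7911 of all 12423 tested genes did, and in DESeq2 0 passed. Of 20 genes of general mitochondrial function, 7 were higher and 6 lower (65.0% called, where 58.8% of all genes were, with a median of 0.25, the same as for the 9 enzymes). The higher count was 3 with library totals alone and 4 with the length trend removed. With library totals alone 2364 of 12423 tested genes were higher, against 3584 with TMM. Of the import genes listed, Tomm20 and Timm23 rose by 0.97 ± 0.17 and 0.75 ± 0.11. Tomm40 (0.31 ± 0.22) and Tomm70a (-0.04 ± 0.21), named after their values were seen, did not pass. Lonp1, a matrix protease, fell by 1.10 (SE 0.12, adjusted p = 7.81e-05 in edgeR). Timm23 did not pass with the length trend removed (0.27, adjusted p = 0.118).

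The genes whose profile over the 6 libraries lay closest to the mean centred profile of the 9 enzymes, among 4986 genes whose log2 CPM averaged 5 or more, were Ablim1, Cad and Pa2g4 (Euclidean distance 0.0988, 0.115 and 0.119 log2 units).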

How the data were processed

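Exon reads of each gene symbol were deposited as a count in each library. A second deposited table gives a signal, the same reads after division by a size factor. STAR 2.7.2d, DESeq2 1.28.1 and the build mm10 are named per the submitters' processing notes, without roles. Counting, strand and multi-mapping settings were not given in the sources used here. The 92 spike-in rows held 0 counts and were left out. Undoing that division gave whole reads for 100% of the normalized values (tolerance 0.1 reads), and under that table's titles edgeR called 3726 of these genes higher and 3584 lower.

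Genes were kept with filterByExpr, scaled with TMM, and compared by the quasi-likelihood test of edgeR 4.0.16 (R 4.3.3) with group as the sole term, Benjamini-Hochberg adjustment over all 12423 genes, and a threshold of 0.05. The standard error is the log2 change divided by the square root of F. The fit was tested on simulated data. Depth limits genes with few counts. Lengths are merged exons of GENCODE M21 (23001 of 23451 symbols matched). Same-numbered libraries deviated from their group means together (r = 0.60, 0.15 and 0.36 for replicates 1 to 3), so the numbers were taken as pairs, though no label says what they share. TCM replicate 2 correlated more with Vehicle replicate 3 (r = 0.42) than with its own number, and TCM replicate 3 had r = 0.27 with Vehicle replicate 2, so the data set replicate 1 apart and do not show that 2 and 3 match by number. Replicates differed by more than sampling noise, so none was counted as a duplicate.

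The 9 enzymes and the lists were chosen with earlier results of these data known. Named by rule are the 9, the 12 other enzymes, and in each further list the 3 genes with the smallest p among those past the threshold, and the 3 genes closest in profile. Genes named outside this rule are marked as named after their values were seen. 1 gene of the planned lists was left out and is not reported here. Alternatives were other scalings, no filter, DESeq2 1.42.0, the replicate block, removal of a length trend, leaving out libraries and the other header.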

Additional observations from a re-analysis of the deposited data

How the results depend on the processing

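The normalized table's header turns all 34 named log2 changes round by construction, to Cs -0.26, Idh1 0.60, Idh2 -1.02, Idh3a -0.25, Ogdh 0.21, Sucla2 -0.83, Suclg1 -0.70, Fh1 0.25, Mdh2 -0.20, Aco1 -0.21, Idh3b -0.18, Idh3g 0.28, Dlst -0.63, Dld -0.21, Mrps36 -1.15, Suclg2 -0.43, Sdha -0.39, Sdhb -0.44, Sdhc -0.68, Sdhd -1.63, Mdh1 -0.64, Adhfe1 0.85, Pck2 2.27, Slc25a10 -1.19, Acod1 0.76, Gls2 -2.78, Gpt2 1.79, Slc1a5 1.12, Lonp1 1.10, Timm23 -0.75, Tomm20 -0.97, Pdk1 -0.99, Pdk3 -0.99 and Dlat -0.78. By that header 1 of the 9 enzymes was higher and 3 lower, 0 and 7 of the other cycle enzymes, 1 and 7 of the pyruvate genes and 1 and 0 of the 2-hydroxyglutarate genes.

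With library totals alone 2364 of 12423 genes were higher, against 3584 with TMM, and 37.4% of calls were higher against 49.0% with TMM. Of the 9 enzymes 1 was then higher and 2 lower, and 2 other cycle enzymes, 4 pyruvate genes, 1 glutamate and malate exchange gene and 3 general mitochondrial genes were higher. That scaling reversed 4 changes that had not passed, Mdh2 (-0.01), Aco1 (-0.0039), Idh3b (-0.03) and Dld (-0.0037). Median-ratio size factors left 0 of the 9 lower and 5 exchange genes higher, no filter left 2 pyruvate genes lower, and DESeq2 left 0 of the 9 and 0 of the 2-hydroxyglutarate genes lower.

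The replicate block, a pairing taken from the data, gave 5 of the 9 higher and 2 lower. It gave 1 other cycle enzyme and 3 pyruvate genes lower, and 6 exchange genes higher. Of all genes 36.3% were then higher and 37.0% lower. The block changed the call of 6 of the 34 named genes (Cs, Idh3a, Fh1, Idh3g, Dld and Sdha), all of which then passed, and of no other. A sign-flip test over the 3 pairs gave each of the 6 ratios a p of 0.250, the smallest it allows. With the length trend removed 2 of the 9 and 1 other cycle enzyme were lower and 4 general mitochondrial genes higher, and Mdh2 (-0.13), Idh3b (-0.09) and Sdhb (-0.04) reversed. Together with the replicate block the lower counts were 2, 1 and, for pyruvate genes, 2, the exchange genes stood at 6 higher and 4 lower, and the same 3 genes were at -0.13, -0.09 and -0.05. Without both replicate 1 libraries 3 of the 9, 1 other cycle enzyme and 2 pyruvate genes were lower. The exchange genes stood at 6 higher and 4 lower, the 2-hydroxyglutarate genes at 1 and 0, and 11 general mitochondrial genes were higher. Of all genes 36.3% were then higher and 37.9% lower.

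When 1 library was left out, 3 of the 9 were higher in each case and 0 to 1 lower. The other cycle enzymes ran from 4 to 8 higher and 0 to 1 lower, pyruvate genes from 4 to 6 and 1 to 2, exchange genes from 2 to 5 higher, citrate and malate genes from 2 to 4 higher, 2-hydroxyglutarate genes from 0 to 1 each way and general mitochondrial genes from 2 to 6 lower. Where no share of all genes stands beside a count, the count describes the setting and is not a result about these genes. The causes were not tested.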

Other observations

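In 3 pairs of subunits of one enzyme the ratio stood apart between the groups. These 3 pairs were chosen after their values were seen and are given without a test. The planned subunit pairs, Sucla2 over Suclg1 and Sucla2 over Suclg2, overlapped between the groups (differences 0.13 and 0.40). The log2 ratio of Ogdh over Dlst, the first and the core component of the same complex, was -0.06, 0.24 and 0.08 in the Vehicle libraries and -0.84, -0.91 and -0.53 in the TCM libraries, a difference of -0.85. Idh3a over Idh3g, the catalytic and a regulatory subunit of the NAD-dependent isocitrate dehydrogenase, stood at 0.02, -0.01 and -0.09 in Vehicle and at 0.49, 0.50 and 0.52 in TCM, a difference of 0.53. Idh3b over Idh3g was 0.35 ± 0.06 in Vehicle and 0.81 ± 0.14 in TCM (SD, n = 3). In each of the 3 pairs the groups did not overlap, and since both counts come from 1 library these ratios do not depend on the scaling between libraries, though they do on the header that names the groups.

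The summed level of the 9 enzymes was 531 ± 0.280 CPM in Vehicle and 612 ± 37.2 CPM in TCM (SD, n = 3), and that of the other 12 was 752 ± 31.9 and 1217 ± 65.8 CPM. Most of the sum of the 9 came from Cs, Ogdh and Mdh2 (157, 140 and 106 CPM in Vehicle, 189, 121 and 122 CPM in TCM), none of which passed in edgeR. Single genes varied more between the Vehicle libraries than their sum did, as Mdh2 ran from 90.0 to 117 CPM.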
